A study of Mus musculus with 36 samples.

Results

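H3K9bhb, a lysine β-hydroxybutyryl mark on histone H3, was set against H4K12bhb, the same modification on histone H4, in crypts of the small intestine of fasted mice. The members are the 4 peak lists of these marks in fasted pools 2 and 5, out of 36 samples and 32 peak lists in the series. Within each pool the peaks of both lists were merged where they overlapped by at least 1 bp, which gave 39981 regions in pool 2 and 39108 in pool 5. A region was assigned to a class by the marks with a peak in it, as a region with both marks, with H3K9bhb alone or with H4K12bhb alone. Here "alone" means only that no peak of the other mark was called there in the same pool.

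Fasted mice were without food for 24 h with free access to water, and fed mice had food and water at will. All were males and females, 6 to 12 weeks old, of the strains Lgr5EGFP-IRES-CreERT2/+ and C57BL/6J, with the genotype given as wildtype. Crypts of 4 animals were pooled for each replicate and handled in the histone deacetylase inhibitor trichostatin A (100 nM) in both conditions. The fed pools, 1 and 4, serve here only as a comparison. The antibody label of the H4K12bhb libraries holds a catalogue number only, so the name of that mark rests on the sample titles. Crypt markers could not be checked, because no gene annotation was used with these peak lists.

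β-Hydroxybutyrate is the main circulating ketone body in fasting, made chiefly in the liver and also in the intestinal epithelium. Its coenzyme A form can donate the acyl group to histone lysines, where the mark is known from active genes. Crypts hold the stem and progenitor cells of the intestinal epithelium together with Paneth cells. H3K4me3 marks promoters, H3K4me1 enhancers, H3K27ac active promoters and enhancers, and H3K79me2 transcribed genes, whereas H3K27me3 is the Polycomb mark and H3K9me3 a mark of heterochromatin.

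Both marks often lay at the same places, and H3K9bhb without H4K12bhb was far more frequent than the reverse. The H3K9bhb lists held 38934 peaks in pool 2 and 37640 in pool 5, and the H4K12bhb lists 26252 and 20031. Regions with both marks numbered 15577 in pool 2 (39% of its regions) and 12025 in pool 5 (30.7%), a mean share of 34.9% ± 5.8 (SD, n = 2). Regions with H3K9bhb alone made up 44.2% in pool 2 and 60.7% in pool 5, a mean of 52.5% ± 11.6. Regions with H4K12bhb alone made up 16.8% and 8.59%, a mean of 12.7% ± 5.8 (SD, n = 2). The order of the 3 classes was the same in both pools. Regions with both marks were the widest, with medians of 3270 and 3189 bp, against 1121 and 1199 bp with H3K9bhb alone and 1168 and 998 bp with H4K12bhb alone. The lower H4K12bhb-alone share in pool 5 went with the shorter H4K12bhb list of that pool.

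**Figure D1:**
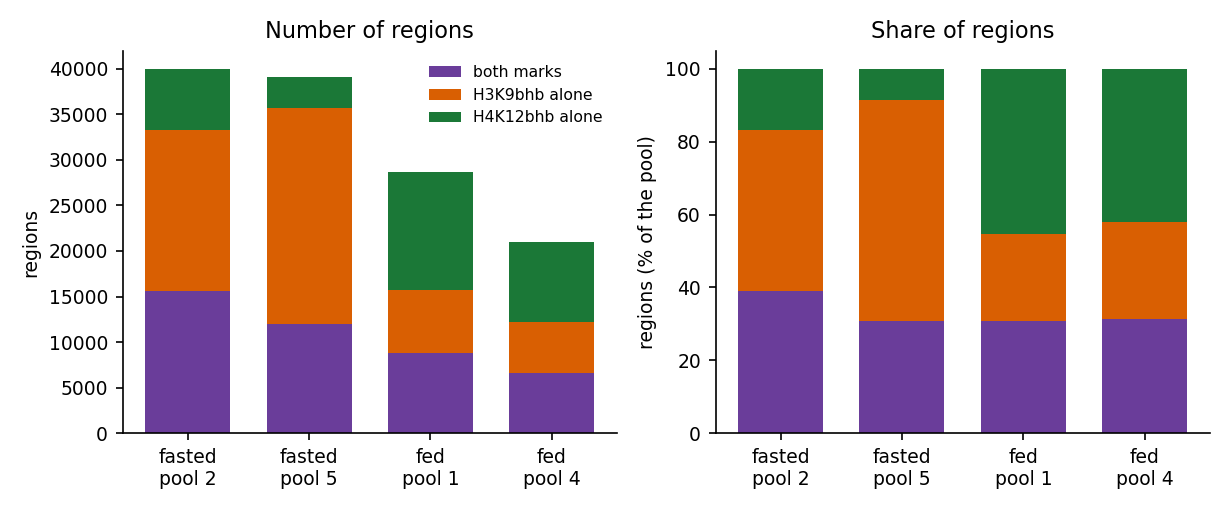
Regions by class in fasted pools 2 and 5 and fed pools 1 and 4, as numbers (left) and as a percentage of the regions of the pool (right). The part with H3K9bhb alone is 44.2% and 60.7% in the fasted pools, against 23.9% and 26.6% in the fed pools.

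Of H3K9bhb peaks, 54.6% in pool 2 and 37.0% in pool 5 met an H4K12bhb peak, and of H4K12bhb peaks 74.4% and 83.2% met an H3K9bhb peak. The mean difference was -33.1 percentage points, and a two-sided exact permutation test over the pools gave p = 0.33, the lowest it can give with 2 libraries a side. This limit holds for every comparison between classes or marks here. The difference moved with the length of the lists. With the same number of top-scoring peaks for both marks, 66.3% of H3K9bhb and 65.5% of H4K12bhb peaks met the other mark in pool 2, and 55.3% and 72.5% in pool 5. The mean difference in that setting was -8.27 points (exact permutation p = 0.67), where equal numbers of itself brings the shares closer, since each meeting counts on both sides. In that setting regions with H3K9bhb alone made up 28.2% and 36.5%, and regions with H4K12bhb alone 28.9% and 22.4%. A pool mixes the cells of whole crypts, so marks on the same chromatin and marks in different cells at the same place cannot be told apart, nor can fewer marked cells and less of a mark per cell.

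Measured in base pairs, H3K9bhb and H4K12bhb shared 49.1 Mb in pool 2 and 33.1 Mb in pool 5. This was 59.3% and 38.6% of the length under H3K9bhb peaks, and 71.4% and 81.5% of the length under H4K12bhb peaks. The Jaccard index, the shared over the joint length, was 0.479 in pool 2 and 0.355 in pool 5. For H3K9bhb with H3K27ac it was 0.507 and 0.499, and for H4K12bhb with H3K27ac 0.527 and 0.339. The same mark in the other fasted pool gave 0.532 for H3K9bhb and 0.469 for H4K12bhb. In pool 2 the overlap of the marks thus slightly exceeded that of H4K12bhb between the pools, and in pool 5 it did not.

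Where 1 peak of each mark met, they were closely superposed. In 10008 regions of pool 2 and 8020 of pool 5, 1 H3K9bhb peak met 1 H4K12bhb peak and no other. These were 64.2% and 66.7% of the regions with both marks, and the midpoints of the paired peaks lay a median of 293 and 318 bp apart. For comparison, chromatin was sheared to 250 to 500 bp. In pool 2 the paired peaks were alike in width, with medians of 1805 bp for H3K9bhb and 1873.5 bp for H4K12bhb. In pool 5 the H3K9bhb peak was the wider, with 2124 against 1517 bp, and it enclosed the H4K12bhb peak in 44.1% of pairs, against 20.9% of pairs in pool 2. The reverse, an H3K9bhb peak inside an H4K12bhb peak, made up 9.99% of pairs in pool 5 and 26.8% in pool 2. Staggered pairs, with neither peak inside the other, were the most frequent, at 45.9% in pool 5 and 52.3% in pool 2. Of the whole length of the regions with both marks, 70.0% in pool 2 and 61.9% in pool 5 was under both, 15.1% and 31.7% under H3K9bhb only, and 14.9% and 6.41% under H4K12bhb only. The part under H3K9bhb only was thus about equal to that under H4K12bhb only in pool 2 and the larger in pool 5. Scores of the paired peaks had a Spearman rho of 0.498 in pool 2 and 0.499 in pool 5 across pairs. This is a description, since pairs of a pool share their libraries, their input and the width that also moves the score.

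Peaks that met the other mark ranked higher and were wider than peaks that did not, for either mark. The peak caller's score was used only as a percentile within its own list. For H3K9bhb the median score percentile was 67.6 in pool 2 and 76.1 in pool 5 with H4K12bhb, against 32.6 and 36.9 without it. For H4K12bhb it was 60.3 and 56.1 with H3K9bhb, against 26.97 and 25.38 without it. These differences of 37.1 and 32.0 percentile points exceeded the spread between pools (exact permutation p = 0.33 each). The strongest peaks were nearly all shared. In the top 10% by score, 97.3% and 91.7% of H3K9bhb peaks met H4K12bhb, and 99.2% and 98.0% of H4K12bhb peaks met H3K9bhb. In the lowest 10% these shares were 25.03% and 10.9% for H3K9bhb, and 48.3% and 64.2% for H4K12bhb.

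**Figure D2:**
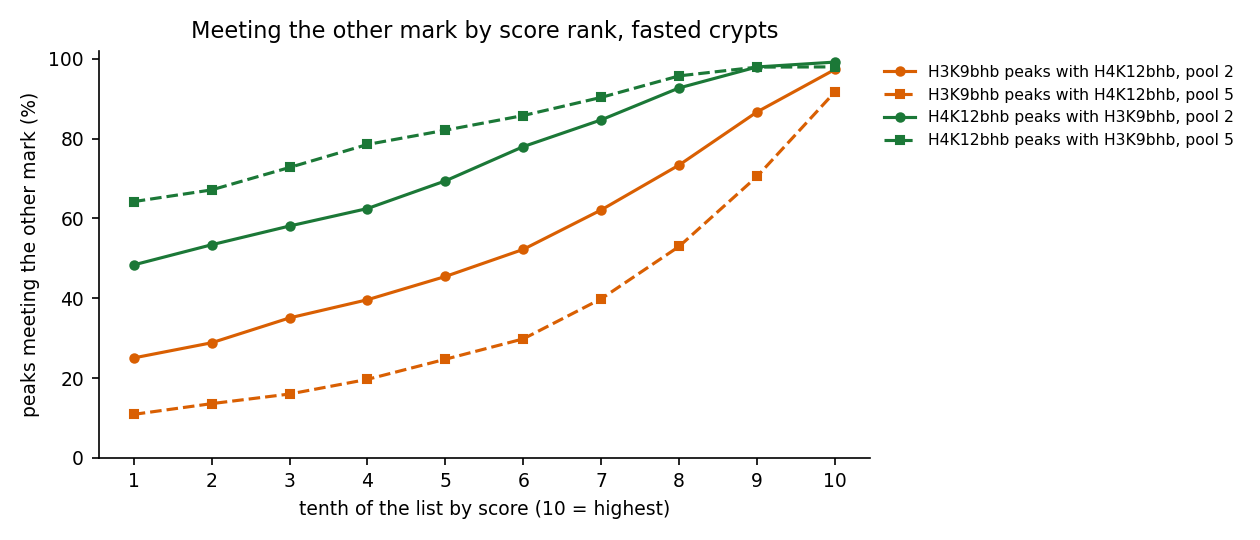
Percentage of H3K9bhb peaks that meet H4K12bhb and of H4K12bhb peaks that meet H3K9bhb (y axis), by score rank in 10 equal steps (x axis, 10 the highest), in fasted pools 2 and 5. All 4 lines climb with rank and reach 91.7% to 99.2% in the highest step.

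H3K9bhb peaks with H4K12bhb had median widths of 1951 and 2435 bp, and those without it 1121 and 1199 bp. H4K12bhb peaks with H3K9bhb had 2122 and 1588 bp, and those without it 1168 and 998 bp. A wider peak meets another more easily, and the share followed width. Among peaks of 4000 bp or more, 96.5% and 85.0% of H3K9bhb and 98.5% and 97.1% of H4K12bhb peaks met the other mark. Below 1000 bp the shares were 26.1% and 13.8% for H3K9bhb, and 47.1% and 63.5% for H4K12bhb. Over whole lists the marks differed little in width, with medians of 1443 and 1461 bp for H3K9bhb and 1715 and 1444 bp for H4K12bhb, and the order turned between the pools.

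The clearest difference between the single-mark classes was in H3K4me3. In regions with H3K9bhb alone it was met by 4.01% in pool 2 and 10.8% in pool 5, a mean of 7.38% ± 4.77, and in regions with H4K12bhb alone by 37.4% and 50.7%, a mean of 44.0% ± 9.4 (SD, n = 2 each). Over all regions with either mark the shares were 25.9% and 30.6%, so H3K9bhb-alone regions lay below this background and H4K12bhb-alone regions above it. The difference was -36.6 percentage points, larger than the spread between pools (exact permutation p = 0.33; 0.67 after Benjamini-Hochberg adjustment across 6 marks). Regions with both marks met H3K4me3 in 45.9% and 64.3% of cases, and these values overlapped those of H4K12bhb alone (difference 11.1 points, exact permutation p = 0.67, adjusted 0.67). Within each pool, over all widths, the share with both marks was the larger, by 8.56 and 13.6 points.

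The H3K4me3 contrast between the single-mark classes kept its direction among regions of like width or rank. The bands of width and of score were both chosen after seeing the data. Among regions of 1000 to 2000 bp, H3K4me3 was met by 3.77% and 11.5% with H3K9bhb alone, and by 38.3% and 57.3% with H4K12bhb alone. Among regions whose best peak lay between the 25th and the 75th score percentile it was met by 4.02% and 11.6%, against 45.8% and 58.4%. In these bands regions with both marks were no longer above H4K12bhb-alone regions in pool 2, with 26.9% by width and 32.8% by score. In pool 5 regions with both marks were slightly above by width (59.1% against 57.3%) and slightly below by score (57.7% against 58.4%). With all peaks cut to windows of 1000 bp, H3K4me3 was met by 11.6% and 13.5% with H3K9bhb alone, and by 33.7% and 46.0% with H4K12bhb alone, a smaller difference of -27.3 points. With equal numbers of peaks of both marks the shares were 4.11% and 11.4%, against 37.3% and 52.8%. Classes built in the same way from the fed β-hydroxybutyryl lists gave the same order against the fasted H3K4me3 lists. Of their H3K9bhb-alone regions 6.16% to 17.9% met a fasted H3K4me3 list, and of their H4K12bhb-alone regions 38.1% to 47.3%, in each of the 4 combinations of a fed pool with a fasted H3K4me3 list. The fed pools' own H3K4me3 lists held only 3430 and 295 peaks, and against them the shares were 0.932% and 0.214% with H3K9bhb alone, and 8.02% and 0.567% with H4K12bhb alone.

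H3K27ac was most frequent where both β-hydroxybutyryl marks lay. It was met by 94.0% and 98.0% of regions with both marks, by 47.3% and 58.4% with H3K9bhb alone, and by 66.1% and 74.8% with H4K12bhb alone. Over all regions the shares were 68.7% and 72%. The H3K9bhb-alone share minus the H4K12bhb-alone share was -17.6 percentage points on average, a difference that exceeded the pool SDs of 7.8 and 6.1 (exact permutation p = 0.33, adjusted 0.67). With equal numbers of peaks of both marks this difference was -8.06 points (exact permutation p = 0.67). The pools then overlapped, with 59.2% and 75.9% for H3K9bhb alone against 70.1% and 81.1% for H4K12bhb alone. Between regions with both marks and H3K9bhb-alone regions the difference was 43.1 points (p = 0.33, adjusted 0.4, exact permutation test). Regions with both marks were also the widest, and a wider region meets another peak more easily. Among regions of 1000 to 2000 bp, H3K27ac was met by 83.5% and 94.9% with both marks. In that band the shares were 50.4% and 58.9% with H3K9bhb alone, and 69.1% and 80.1% with H4K12bhb alone.

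**Figure D3:**
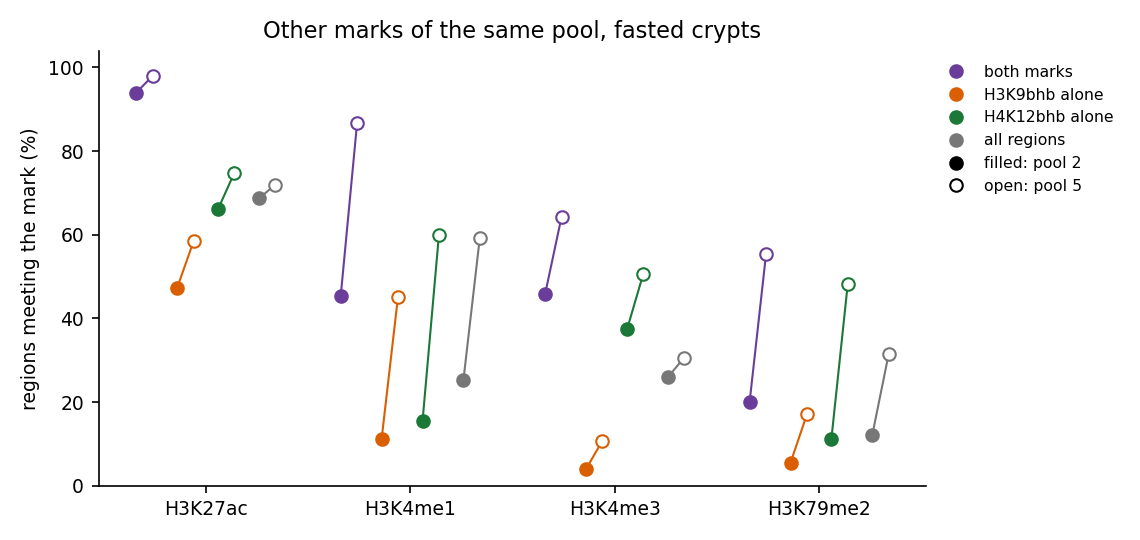
Percentage of regions (y axis) that meet H3K27ac, H3K4me1, H3K4me3 or H3K79me2 of the same pool, for regions with both marks, with H3K9bhb alone, with H4K12bhb alone and for all regions. Filled points are fasted pool 2 and open points fasted pool 5. For H3K4me3 the H3K9bhb-alone points, 4.01% and 10.8%, lie far below the H4K12bhb-alone points, 37.4% and 50.7%.

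Over all widths, H3K4me1 and H3K79me2 gave the same order of classes within each pool, and their level differed between the pools. The H3K4me1 lists held 18692 peaks in pool 2 and 46499 in pool 5, and the H3K79me2 lists 14129 and 31246. H3K4me1 was met by 45.4% and 86.7% of regions with both marks, by 11.2% and 45.2% with H3K9bhb alone and by 15.4% and 59.8% with H4K12bhb alone, against 25.2% and 59.2% of all regions. H3K79me2 was met by 20.1% and 55.3%, by 5.51% and 17.0%, and by 11.3% and 48.3% in the same order of classes, against 12.2% and 31.5% of all regions. For the single-mark classes the values of the pools overlapped in both marks (exact permutation p = 0.67, adjusted 0.8). That test leaves out the pairing by pool. Within each pool the H4K12bhb-alone share was the larger, and the exact sign-flip test on these pairs gave p = 0.5 for either mark, its lowest value. For H3K79me2 in pool 5, regions with both marks were not above H4K12bhb alone at like width (49.0% with both, 49.9% with H4K12bhb alone, 1000 to 2000 bp) or like score (50.4% and 52.1%).

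The repressive marks were rare in all 3 classes. H3K27me3 was met by 0.700% and 0.740% of regions with both marks, by 1.03% and 0.927% with H3K9bhb alone and by 1.04% and 0.834% with H4K12bhb alone, against 0.903% and 0.862% of all regions. H3K9me3 was met by 0.0193% and 0.0665% of regions with both marks and by 0.0170% and 0.122% with H3K9bhb alone, against 0.015% and 0.0946% of all regions. No H4K12bhb-alone region met it, 0 of 6717 in pool 2 and 0 of 3358 in pool 5. The H3K9me3 lists held only 521 and 4376 peaks.

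Sorted into exclusive groups, regions with H3K9bhb alone were mostly enhancer-like or without any of the other 6 marks. Enhancer-like regions, with H3K4me1 or H3K27ac and no H3K4me3, made up 42.0% ± 10.5 of regions with both marks, 50.9% ± 5.5 of H3K9bhb-alone and 34.4% ± 0.9 of H4K12bhb-alone regions (SD, n = 2 each). Over all regions the share was 45.9% in pool 2 and 46.8% in pool 5, close to the 47.0% of H3K9bhb alone in pool 2 and below its 54.8% in pool 5. None of the 6 marks was called at 46.4% and 30.7% of H3K9bhb-alone regions and at 24.97% and 9.26% of H4K12bhb-alone regions. With both marks such bare regions made up 4.19% and 0.832%, and over all regions 26.3% and 19.7%. Bare H3K9bhb-alone regions ranked low, with median score percentiles of 25.1 and 26.8, and were narrow, with median widths of 1031 and 1070 bp. Enhancer-like H3K9bhb-alone regions ranked at 42.1 and 44.6. Among H4K12bhb-alone regions those with H3K4me3 ranked highest of the larger groups, at 37.4 and 30.3, above the enhancer-like ones at 27.04 and 22.93 and the bare ones at 17.2 and 15.4.

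Counted from H3K4me3 peaks, the order of the single marks differed between the pools. Of 15079 H3K4me3 peaks in pool 2 and 18429 in pool 5, 53.4% and 43.2% met both marks. H3K9bhb alone was met by 3.49% and 9.89%, and H4K12bhb alone by 14.4% and 5.99%, so H3K9bhb alone was the more frequent in pool 5, where the H4K12bhb list was shorter than in pool 2. H3K4me3 peaks with both marks had median score percentiles of 65.7 and 73.7, those with H3K9bhb alone 31.0 and 38.9, those with H4K12bhb alone 54.2 and 61.9, and those with neither 30.3 and 35.1. H4K12bhb alone thus lay on stronger H3K4me3 peaks than H3K9bhb alone in both pools.

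At H3K27ac peaks away from H3K4me3, 26241 in pool 2 and 21804 in pool 5, H3K9bhb was the more frequent mark in both pools. They met both marks in 34.2% and 17.3% of cases, H3K9bhb alone in 26.7% and 40.4%, and H4K12bhb alone in 7.44% and 2.42%. The H3K9bhb lists were the longer in both pools, and the part of list length in this order was not tested. In the fed pools, where the H4K12bhb lists were the longer, such peaks met H3K9bhb in 42.2% and 46.1% of cases. They met H4K12bhb in 61.7% and 55.8%, but the fed H3K4me3 lists that set them apart held only 3430 and 295 peaks. In the fasted pools, coverage along the distance from peak midpoints gave the same order as the counts. At the midpoint of these distal H3K27ac peaks H3K9bhb peaks covered 49.2% and 45.8% of positions and H4K12bhb peaks 32.7% and 12.3%. At H3K4me3 midpoints H3K9bhb covered 49.8% and 47.1%, and H4K12bhb 62.9% and 40.6%. H4K12bhb coverage at H3K4me3 midpoints was therefore 1.92 and 3.30 times that at distal H3K27ac midpoints, and H3K9bhb coverage 1.01 and 1.03 times. At 5000 bp on either side of the H3K4me3 midpoint, H4K12bhb coverage was at most 19.3% in pool 2 and 9.47% in pool 5, and H3K9bhb coverage at most 20.9% and 18.2%. At the same distance from distal H3K27ac midpoints, H4K12bhb coverage was at most 24.5% and 11.2%, and H3K9bhb coverage at most 35.1% and 32.0%. From these flanks to the midpoint H3K9bhb coverage thus rose more at H3K4me3 than at distal H3K27ac peaks. In pool 5 H4K12bhb coverage at distal midpoints, 12.3%, was little above its flanks.

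**Figure D4:**
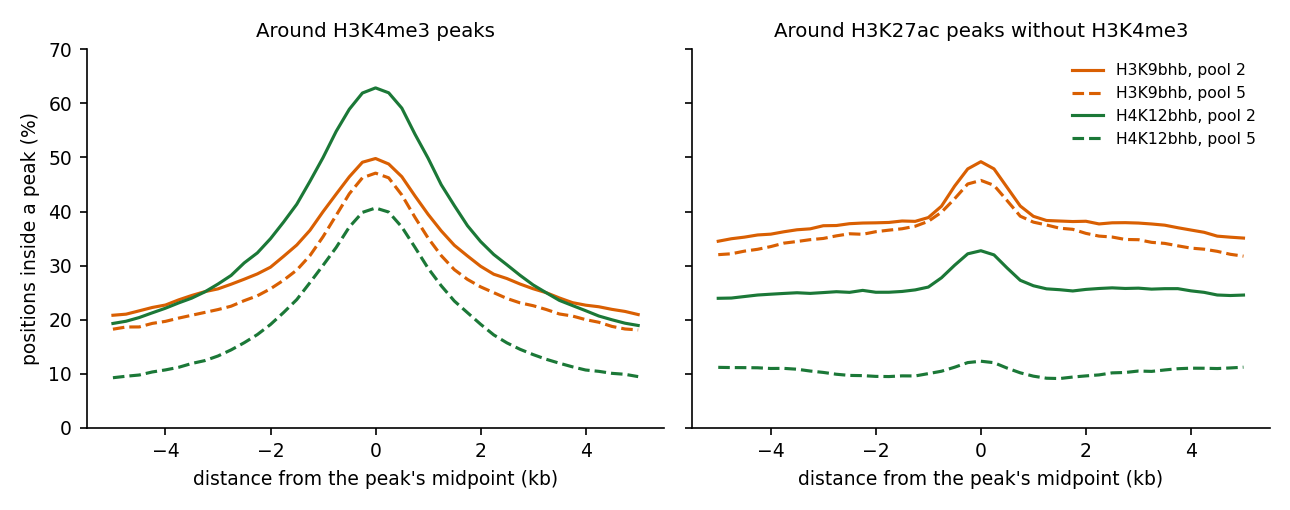
Percentage of positions inside an H3K9bhb or H4K12bhb peak (y axis) by distance in kb from the midpoint of H3K4me3 peaks (left) and of H3K27ac peaks that meet no H3K4me3 peak (right), fasted pools 2 and 5. H4K12bhb stands at 62.9% and 40.6% at H3K4me3 midpoints and at 32.7% and 12.3% at distal H3K27ac midpoints, while H3K9bhb stays between 45.8% and 49.8% at both. At 5 kb H3K9bhb stands at 20.9% and 18.2% at most on the left, and at 35.1% and 32.0% at most on the right.

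Many single-mark regions lay close to a peak of the other mark. The median gap from an H3K9bhb-alone region to the nearest H4K12bhb peak was 3910 bp in pool 2 and 6936 bp in pool 5, and from an H4K12bhb-alone region to the nearest H3K9bhb peak 2535 and 2542 bp. Within 1000 bp lay 20.9% and 13.9% of H3K9bhb-alone regions and 32.4% and 34.1% of H4K12bhb-alone regions. By median gap, H4K12bhb-alone regions with H3K4me3 were the more isolated, with 17250 and 5776.5 bp, against 1582 and 1968 bp for those without H3K4me3. Within 1000 bp lay 22.1% and 34.3% of those with H3K4me3, against 38.6% and 33.9% of those without it. In pool 5 these shares were thus close. H3K9bhb-alone regions went the other way, with median gaps of 1290 and 4839.5 bp with H3K4me3, against 3987 and 7071 bp without it.

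Class membership carried over between the pools to a differing degree. Regions with both marks in pool 5 had both in pool 2 in 84.2% of cases, and those of pool 2 had both in pool 5 in 62.3%. H3K9bhb-alone regions of pool 2 had H3K9bhb without H4K12bhb in pool 5 in 44.2% of cases, both in 3.57% and neither in 50.8%. H3K9bhb-alone regions of pool 5 had both marks in pool 2 in 24.6% of cases, H3K9bhb only in 31.9% and neither in 36.0%. H4K12bhb-alone regions of pool 2 had H4K12bhb without H3K9bhb in pool 5 in 12.1% of cases and H3K9bhb, with or without H4K12bhb, in 18.3% and 24.7%, and neither mark in 44.8%. Those of pool 5 had H4K12bhb only in pool 2 in 30.1%, both in 24.8% and neither in 36.4%. For comparison, H3K9bhb only in pool 5 was found at 27.3% of pool 2 regions with both marks and 24.7% with H4K12bhb alone. H4K12bhb only in pool 5 was found at 3.16% of pool 2 regions with both marks and 1.45% with H3K9bhb alone. Of pool 5 regions, 3.89% with both marks and 8.76% with H4K12bhb alone had H3K9bhb only in pool 2. H4K12bhb only in pool 2 was found at 8.64% with both marks and 7.52% with H3K9bhb alone.

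Regions with the same class in both pools kept the contrast in H3K4me3. The 4 fasted lists merged into 44875 regions, of which 8950 had both marks in both pools, 5557 had H3K9bhb in both pools and H4K12bhb in neither, and 648 the reverse. H3K4me3 was called in both pools at 63.6% of the regions with both marks, at 2.03% (113) of the H3K9bhb-alone regions and at 63.0% (408) of the H4K12bhb-alone regions, against 22.4% of all 44875. H3K27ac was called in both pools at 98.8%, 46.5% and 76.5% of these classes, against 51.8% of all. H3K4me1 stood at 56.3%, 12.5% and 12.0%, against 21% of all. These calls in both pools are limited by the short pool 2 list of H3K4me1, and in pool 5 by itself 91.9%, 41.8% and 60.5% of the classes met it. H3K79me2 stood at 27.9%, 4.37% and 16.2%, against 11.1% of all. H3K27me3 stood at 0.536%, 0.396% and 0.772%, against 0.733% of all, and H3K9me3 was called in both pools at 1, 2 and 0 regions of these classes, against 0.00891% of all. In the fed pools, which took no part in this selection, H3K9bhb was called in at least 1 pool at 75.8% of the regions with both marks, at 32.4% of the H3K9bhb-alone and at 11.6% of the H4K12bhb-alone regions, against 31% of all. H4K12bhb was called there at 92.9%, 22.2% and 48.6%, against 37.6% of all. The H3K9bhb share of the H3K9bhb-alone regions was thus close to that of all regions, and the H4K12bhb share of the H4K12bhb-alone regions above it.

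The regions named here were taken by rank, from the lowest of their score percentiles in the lists that define the class, and all positions are on mm9 and counted from 1. The strongest region with both marks lay on chromosome 5 (115413450 to 115423928) and stood above the 99.9th percentile in all 4 lists. Next came chromosome 7 (19848341 to 19858671), chromosome 4 (128906612 to 128931998), chromosome 7 again (16983731 to 17012803), chromosome 11 (50035670 to 50045532) and chromosome 15 (78852275 to 78862131). All 6 carried H3K27ac and H3K4me3 in both pools, and both β-hydroxybutyryl marks in both fed pools. Of all 8950 regions of this class, 46.3% had H3K9bhb and 72.6% had H4K12bhb in both fed pools. The longest region with both marks spanned 64423 bp on chromosome 6 (94586714 to 94651136), of which H3K9bhb covered 75.1% and 85.2% and H4K12bhb 91.7% and 94.2%.

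The H3K9bhb-alone regions that led their class were distal in marks, with 1 exception. The first and longest, 20497 bp on chromosome 1 (182105888 to 182126384), was covered by H3K9bhb to 94.2% and 98.5% and by H3K27ac to 99.8% and 100%, and also held H3K4me3 over 29.4% and 45.0% of its length. Its nearest H4K12bhb peak lay 13028 and 14160 bp away in the fasted pools, whereas in both fed pools H4K12bhb was called in it. The other 5 lay on chromosomes 4 (104934636 to 104942093), 5 (99759305 to 99764187), 7 (146523881 to 146528679), 8 (122914109 to 122918966) and 5 again (33436506 to 33442246). All 5 had H3K27ac over 58.7% to 100% of their length in each pool, and no H3K4me3 or H3K79me2 peak in either pool. Their nearest H4K12bhb peaks in the fasted pools lay from 548 bp (chromosome 7) to 78592 bp (chromosome 5 at 99759305) away. In the fed pools H4K12bhb was called in the chromosome 7 region in both pools and in the chromosome 4 region in pool 1. It was called in the others in neither fed pool.

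The H4K12bhb-alone regions that led their class mostly carried H3K4me3, which was called in both pools at 63.0% of the whole class. The first and longest, 15000 bp on chromosome 14 (69897984 to 69912983), had an H3K9bhb peak only 24 and 47 bp beyond its left border. At that border, within 500 bp, 10 of the 16 fasted lists and 5 of the 16 fed lists had the edge of a peak, and in fed pool 1 an H3K9bhb peak met the region. The part of this border in the class of the region was not tested. The region on chromosome 3 (68843930 to 68848503) had H3K4me3 over 46.5% and 93.0% of its length, that on chromosome 6 (136478883 to 136481998) over 64.5% and 60.0%, and that on chromosome 9 (21393823 to 21398552) over 68.3% and 59.7%. In the fed pools an H3K9bhb peak met the chromosome 6 region in both pools and the chromosome 3 region in pool 1, and none met the chromosome 9 region. The region on chromosome 14 at 104051090 to 104054313 had H3K4me3 over 58.6% and 86.2%, its nearest H3K9bhb peak 329063 and 277812 bp away, and no H3K9bhb peak in it in the fed pools. The remaining region, on chromosome 7 (142900278 to 142904307), had no H3K4me3, H3K27ac over at most 2.18% of its length, and H3K79me2 over 18.4% and 100%.

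**Figure D5:**
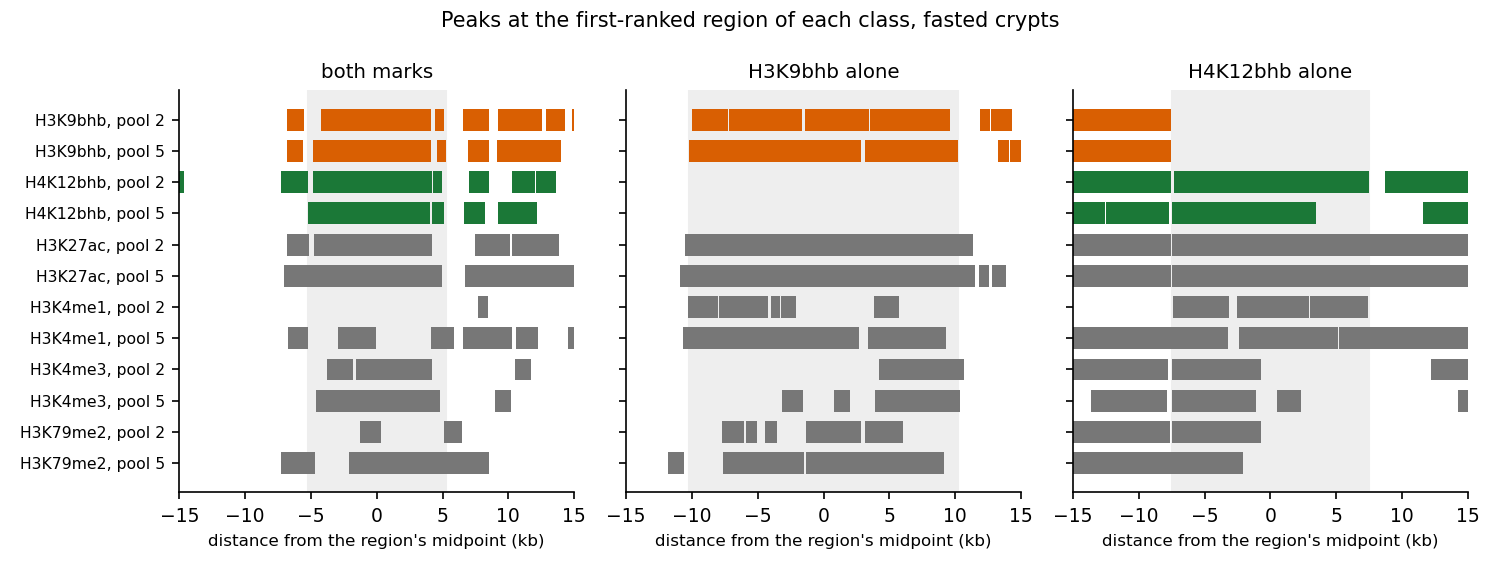
Peaks of 6 marks in fasted pools 2 and 5 within 15 kb of the midpoint of the first-ranked region with both marks (chromosome 5), with H3K9bhb alone (chromosome 1) and with H4K12bhb alone (chromosome 14); each bar is a peak and the grey band the region. On the right, H3K9bhb peaks end 24 and 47 bp left of the band, where peaks of other marks also break.

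The mix of classes differed between fasted and fed crypts mainly in which mark stood alone. Regions with H3K9bhb alone made up 44.2% and 60.7% of regions in the fasted pools, against 23.9% and 26.6% in the fed pools. Regions with H4K12bhb alone made up 16.8% and 8.59% in the fasted pools, against 45.3% and 41.9% in the fed pools. The pools did not overlap between conditions in either share (exact permutation p = 0.33 each). In each pool the mark with the longer list was the one more often alone. In the fed pools the H3K9bhb lists held 19555 and 13923 peaks and the H4K12bhb lists 23073 and 16560, whereas in the fasted pools the H3K9bhb lists were the longer. Read depth is unknown, and the part of list length in this shift was not tested. The names of the deposited lists join fasted pool 2 with fed pool 1, and fasted pool 5 with fed pool 4, under a shared number. Within these pairs the fasted share was 1.85 and 2.28 times the fed share for H3K9bhb alone, and 0.371 and 0.205 times for H4K12bhb alone. Regions with both marks made up 39.0% and 30.7% in the fasted pools, against 30.8% and 31.4% in the fed pools, so the conditions overlapped (exact permutation p = 1). They did not overlap (exact permutation p = 0.33) in 4 other settings, where fasted minus fed was 11.1 points at scores from 100 upwards, 9.62 with equal numbers of peaks, 5.16 with an overlap of 50% of the shorter interval and 3.70 with gaps of up to 1000 bp merged. With windows of 1000 bp the conditions overlapped, with fasted minus fed at 2.96 points (exact permutation p = 0.67). The mean difference of 3.77 percentage points was 7.87 without fasted pool 5 and -0.341 without fasted pool 2.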

How the data were processed

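Chromatin immunoprecipitation with sequencing gave 32 peak lists, each deposited for 1 library. Per the file names, the authors called peaks with MACS1 without a fragment model, each library against an input. Tools named in the submitters' processing notes are Bowtie 1.1.2, SAMtools 1.9, deepTools 1.5.11 and FastQC, and the build is mm9 (mouse). The deposited score of a peak lies at 50 or above in all lists, as -10 times the log10 of a p of 1e-05 would give, and was used only as a rank within its list. Read depth is unknown, and it moves peak number, width and score.

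Overlaps were computed with numpy 2.4.6 and pandas 2.3.3 in Python 3.11.15. The overlap code was tested on simulated data of 20000 sites, where it recovered 3 of 3 planted classes, and 10 of 10 values on the deposited lists equalled those of bedtools 2.31.1. Exact permutation tests ran over the pools, 2 against 2, with Benjamini-Hochberg adjustment over 6 marks. Libraries of the same number come from the same pool, per the sample titles, so they are paired; the exact sign-flip test on such pairs cannot go below p = 0.5. The labels say that animals were pooled, so p-values measure the spread between pools. Named regions are the 6 of each class, the same in both pools, with the highest value of their lowest score percentile, and the longest; regions on chromosome 18 were not named. Members, classes and lists were chosen with earlier results of these data known. Gene names and sequences are not given, because the reference tables are of another build. Alternatives were equal numbers of peaks, scores from 100 upwards, windows of 1000 bp, an overlap of 50% of the shorter interval, gaps of up to 1000 bp merged, a mark met in either pool, and each pool left out.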

Additional observations from a re-analysis of the deposited data

Results flagged for a closer look

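The difference between the marks in peak number ran in opposite directions in fasted and fed crypts. H3K9bhb lists minus H4K12bhb lists gave 12682 and 17609 peaks in the fasted pools, against -3518 and -2637 in the fed pools. The mean difference between the conditions was 18223 peaks, and the exact permutation test over the pools gave p = 0.33, its lowest possible value.

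The share of peaks that meet the other mark turned as well. H3K9bhb minus H4K12bhb was -19.8 and -46.3 percentage points in the fasted pools, against 21.3 and 13.0 in the fed pools, a difference of -50.2 points (exact permutation p = 0.33). In each pool the mark with the shorter list had the higher share.

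For H3K9me3, the share of regions with H3K9bhb alone minus that of regions with H4K12bhb alone was 0.0170 and 0.122 percentage points in the fasted pools, against -0.0154 and -0.0113 in the fed pools. The difference was 0.0830 points (exact permutation p = 0.33) and rests on few regions.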

How the results depend on the processing

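Of 196 values of 23 results under the alternatives, 181 were counted as the same. A tested difference counted as the same where it kept its sign. The share of a class counted as the same where it moved by less than 1 SD of the pools. No threshold of p entered, and no test over 2 pools can pass one. The 181 include 19 values with the pool as a replicate block, which are the same by construction. The H3K4me3 and H3K27ac shares stayed lower in H3K9bhb-alone than in H4K12bhb-alone regions in every alternative run. For H3K27ac the difference (-17.6 points) was -8.06 with equal numbers of peaks. The difference in median peak width (-127.5 bp) was 544 bp with equal numbers of peaks, and -272 to 17 bp with a pool left out. The share of regions with both marks (34.9%) was 42.0% with equal numbers, 26.1% with windows of 1000 bp, 41.8% with gaps merged and 50.8% with the mark met in either pool. The share with H3K9bhb alone (52.5%) was 32.4% with equal numbers. The share with H4K12bhb alone (12.7%) was 25.6% with equal numbers and 21.2% with windows. For H3K27me3, H3K9bhb alone minus H4K12bhb alone (0.0402 points) was -0.111 at a score of 100 or more, -0.163 with the mark met in either pool, and -0.0131 to 0.0935 with a pool left out. For H3K9me3, both marks minus H3K9bhb alone (-0.0267 points) was 0.0141 with gaps merged, and -0.0557 to 0.00230 with a pool left out. The share with both marks, fasted minus fed (3.77 points), was -0.341 to 7.87 with a pool left out. The cause of these shifts was not tested. With the pool as a replicate block, differences are the same by construction: for H3K4me3, H3K9bhb alone minus H4K12bhb alone stayed at -36.6 points, with an exact sign-flip p of 0.5, and the block changed no call.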

Other observations

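The X chromosome held 149 regions with either mark in pool 2 and 139 in pool 5, which is 0.373% and 0.355% of all regions. H3K9bhb alone made up 19.5% of them in pool 2 and 64.0% in pool 5, and H4K12bhb alone 59.1% (88 regions) in pool 2 and 15.1% (21 regions) in pool 5. On the 19 autosomes H3K9bhb alone ranged over 40.2% to 51.0% in pool 2 and 56.8% to 65.0% in pool 5, and H4K12bhb alone over 13.3% to 19.4% and 7.36% to 10.2%. The pools thus differed on the X chromosome more than on the autosomes, a pattern noticed in the data and not tested. Males and females were pooled.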
